A study of Zea mays with 21 samples.

Results

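The 100 protein-coding genes (PCgenes) described here rose under waterlogging, lay close to their unstressed level again at WS_8h, and were high once more at WS_10h. They were chosen by the mean TPM (a transcript abundance corrected for gene length and scaled within each library) of 5 of the 7 time points. For each PCgene the log2 difference of a time point was taken as log2((mean TPM + 1) / (mean TPM at WS_0h + 1)). Of 23175 listed PCgenes, 8881 had an absolute log2 difference below 0.5 at WS_8h and a log2 difference above 0 at WS_4h, and the 100 of these with the highest value of the smaller of the WS_6h and WS_10h differences were kept. The libraries of WS_0h, WS_4h, WS_6h, WS_8h and WS_10h therefore set the selection, and their values are given as a description with no test. WS_2h and WS_12h took no part in it.

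All plants were untransformed seedlings of the maize inbred line B73 at the second leaf stage. WS_0h was sampled before treatment, and WS_2h, WS_4h, WS_6h, WS_8h, WS_10h and WS_12h after 2, 4, 6, 8, 10 and 12 h under a layer of water, with 3 libraries of mixed primary root tips at each of the 7 time points, 21 in all. No unflooded plants were sampled at the later hours, and the flooding began at a single hour of the day, which means that its duration and the time of day cannot be told apart in any comparison. Each library is a mix of root tips from the plants of 1 pot, and fewer cells of a type cannot be told apart from less RNA per cell.

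Flooded roots lose access to oxygen, and plant cells then draw their ATP from glycolysis coupled to fermentation. In Arabidopsis, group VII ethylene response factors are stabilised when oxygen falls and switch on a core set of genes for fermentation, sugar breakdown and signalling. When oxygen or energy status changes again, many of these transcripts are known to move within hours. The members carry only B73 RefGen_v4 identifiers in the data. None of these identifiers (0 of 23175) occurs in the RefSeq gene table used here, and the text of the study names no member, so the members are given by identifier, without gene names, sequences or positions. For the same reason the root tip label could not be compared with tissue marker genes.

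The listed PCgenes summed to between 534645 TPM (WS_8h replicate 1) and 689689 TPM (WS_2h replicate 1) per library. A median-ratio scale factor of the libraries lay between 0.965 and 1.06. Read depth was not in the values used here. The median log2 difference of the 22783 PCgenes with a mean above 1 TPM stayed between -0.11 and 0.03 in every library. WS_2h replicate 1 stood apart from its time point: across PCgenes it correlated more closely with WS_8h replicate 2 (Pearson r = 0.965) than with the other WS_2h libraries (mean r = 0.954). WS_4h replicate 1 had a still lower mean r with its own time point (0.950), the lowest of all libraries, but was nearest to another WS_4h library. The main results that rest on WS_2h replicate 1 are given with and without it.

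The median mean level of the members was 4.73 TPM at WS_0h, 12.7 TPM at WS_2h, 13.5 TPM at WS_4h, 25.1 TPM at WS_6h, 6.28 TPM at WS_8h, 17.9 TPM at WS_10h and 17.6 TPM at WS_12h. As log2 differences from WS_0h, the member medians were 1.21, 1.16, 2.12, 0.28, 1.76 and 1.73 from WS_2h to WS_12h. The median of the members thus stood at a like level at WS_2h and WS_4h, was highest at WS_6h, dropped at WS_8h and was raised again in the last 2 time points. The highest mean of a member fell at WS_6h for 62 members, at WS_12h for 19, at WS_4h for 15, at WS_10h for 3 and at WS_2h for 1. Mean levels at WS_0h ran from 0.09 to 103 TPM, and 25 members lay below 1 TPM there. For these a constant of 1 TPM makes log2 differences smaller than those of the TPM themselves, also at WS_8h.

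**Figure D1:**
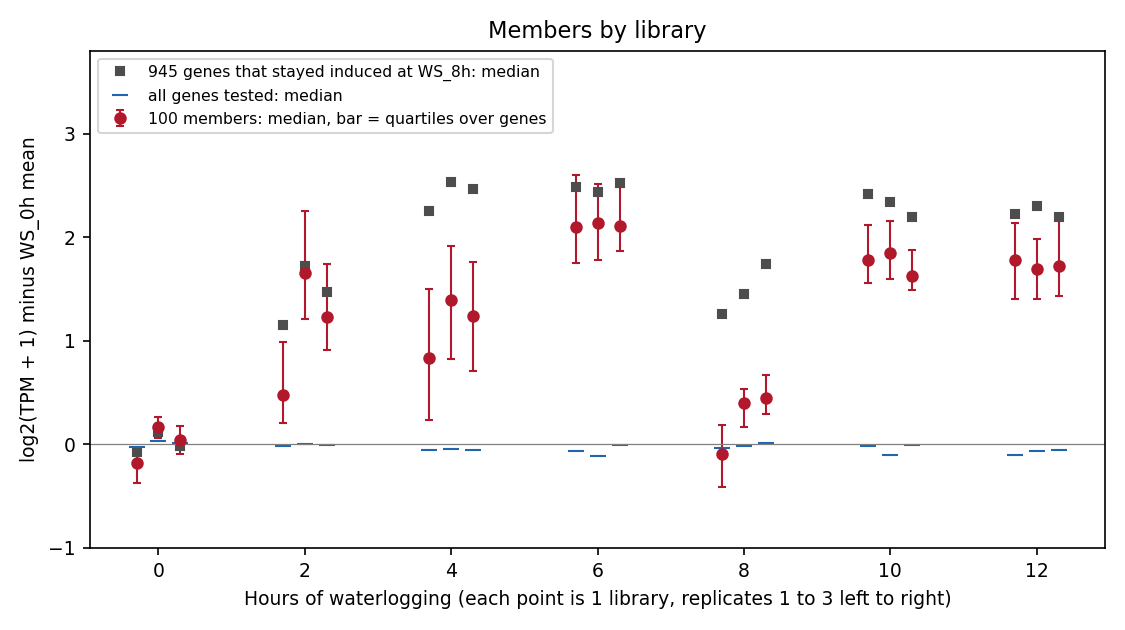
Median log2(TPM + 1) of the members relative to the WS_0h mean in each of the 21 libraries (red, bars are quartiles over the 100 genes), with the medians of 945 PCgenes that stayed induced at WS_8h (grey squares) and of all PCgenes tested (blue dashes), against hours of waterlogging. The members sit between -0.09 and 0.44 in the WS_8h libraries and between 2.10 and 2.14 in the WS_6h libraries.

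The 3 libraries of a time point were alike at WS_6h, with member medians from 2.10 to 2.14, at WS_10h (1.63 to 1.85) and at WS_12h (1.70 to 1.78). They were less alike at WS_2h, where replicate 1 lay at 0.47 and the others at 1.66 and 1.23, at WS_4h (0.83 against 1.39 and 1.24) and at WS_8h (-0.09 against 0.39 and 0.44). Replicate 1 was thus the lowest library for the members at each of these time points, and also at WS_0h (-0.18 against 0.16 and 0.04). It held the lowest of the 3 values in 69 members at WS_0h, 92 at WS_2h, 65 at WS_4h and 80 at WS_8h, against 41.2%, 44.8%, 36.5% and 41.8% of all PCgenes tested. The median within-time-point SD of log2(TPM + 1) was 0.61 for members at WS_2h, against 0.26 for all PCgenes tested, and 0.18 against 0.17 at WS_6h. What set these libraries lower was not tested.

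In 99 of the 100 members all 3 WS_8h libraries lay below every WS_6h and every WS_10h library, which 9.92% of the PCgenes tested also showed. All 3 WS_8h libraries lay above all 3 WS_0h libraries in 19 members, and in 17% of the PCgenes tested. Both counts use the values that chose the members, so nothing is read from them. At WS_8h 86 members had a positive and 14 a negative log2 difference, within the limits of the selection (-0.32 to 0.50).

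Zm00001d006947, number 2 in the order of selection, was raised at WS_2h, WS_6h, WS_10h and WS_12h and low at WS_4h and WS_8h. Its TPM were 7.49, 7.85 and 7.97 at WS_0h, 24.54, 89.07 and 52.24 at WS_2h, 6.69, 13.69 and 13.65 at WS_4h, and 116.17, 127.40 and 104.52 at WS_6h. They fell to 7.30, 9.75 and 11.50 at WS_8h and stood at 63.40, 63.05 and 47.79 at WS_10h and 64.30, 66.17 and 66.77 at WS_12h. The WS_8h values overlapped those of WS_0h and WS_4h, and every library of WS_2h, WS_6h, WS_10h and WS_12h lay above them.

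Zm00001d010812, number 5 in the order, alternated in the same way at a higher level. Before flooding its libraries held 9.11, 17.16 and 19.57 TPM, followed by 31.42, 91.57 and 70.08 at WS_2h, 10.71, 53.50 and 24.15 at WS_4h and 171.36, 207.66 and 140.15 at WS_6h. At WS_8h it had 6.50, 19.61 and 23.02 TPM, then 89.42, 116.72 and 74.47 at WS_10h and 89.06, 82.34 and 83.81 at WS_12h. Replicate 1 was the lowest library at WS_0h, WS_2h, WS_4h and WS_8h, and the 3 libraries of WS_8h overlapped those of WS_0h.

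Zm00001d018811 was nearly absent before stress and again at WS_8h. Its libraries held 0.03, 0.14 and 0.30 TPM before flooding and 0.09, 0.11 and 0.55 TPM at WS_8h. Between these it reached 7.72, 5.40 and 7.05 TPM at WS_6h, and afterwards 6.54, 5.86 and 7.92 TPM at WS_10h and 3.71, 7.83 and 6.34 TPM at WS_12h. Its WS_2h (1.73 to 6.01) and WS_4h (1.19 to 3.36) libraries lay above all of WS_0h and WS_8h.

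Zm00001d016730, number 10 in the order, also fell at WS_8h. From 0.64, 2.10 and 4.62 TPM before flooding it reached 36.30, 49.81 and 27.87 at WS_6h, and then had 0.12, 3.02 and 3.57 at WS_8h and 7.74, 18.36 and 19.00 at WS_10h. Replicate 1 was the lowest library of WS_0h, WS_8h and WS_10h, and WS_8h overlapped WS_0h but not WS_6h or WS_10h. Zm00001d008841, number 4, had 10.37, 10.95 and 7.09 TPM at WS_6h, 0.81, 1.30 and 0.67 at WS_8h and 10.55, 8.31 and 5.14 at WS_10h, against 0.80, 0.20 and 0.32 before flooding. Its WS_8h libraries overlapped those of WS_0h by 1 library on each side.

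The member with the highest mean before stress, Zm00001d039991, was singled out after its values were seen. Its libraries held 102.92, 118.20 and 87.25 TPM before flooding, 404.68, 401.34 and 329.88 at WS_6h, 83.42, 132.04 and 176.45 at WS_8h and 347.23, 363.77 and 215.78 at WS_10h. The WS_8h libraries overlapped those of WS_0h and lay below those of WS_6h and WS_10h, in a transcript far above the median member in level.

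Zm00001d046145, first in the order of selection, differed in having its highest level at WS_4h. It rose from 1.53, 1.98 and 1.89 TPM before flooding to 4.27, 8.57 and 6.82 at WS_2h, 47.55, 58.36 and 75.06 at WS_4h and 23.88, 16.56 and 15.64 at WS_6h. At WS_8h it lay at 2.23, 2.13 and 2.51 TPM, and then at 19.42, 19.27 and 15.27 at WS_10h and 16.94, 19.98 and 16.70 at WS_12h. The WS_8h libraries were all above those of WS_0h, by a small margin, and all below every other waterlogged library.

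**Figure D2:**
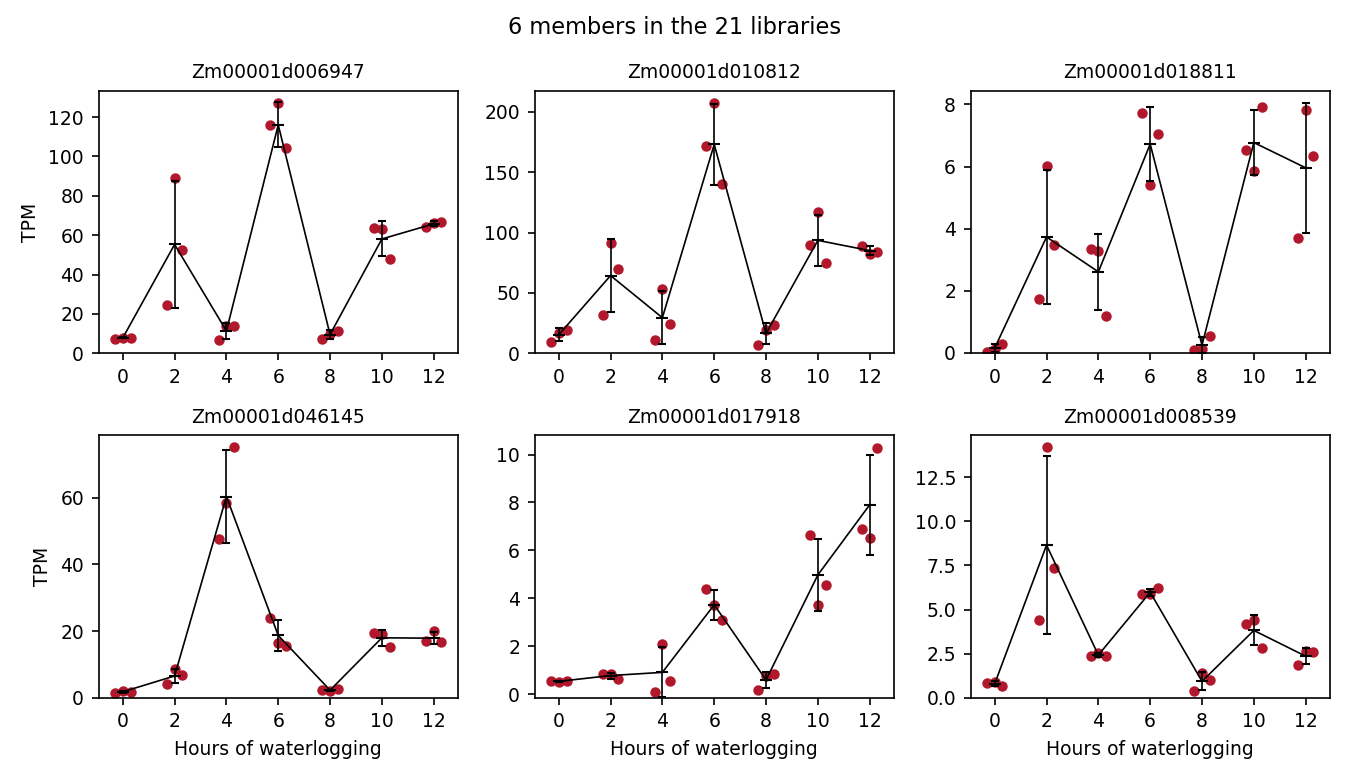
TPM of 6 members in the 21 libraries against hours of waterlogging (points are libraries, the line joins means, bars are the SD over 3 libraries). Zm00001d006947, Zm00001d010812 and Zm00001d018811 are low at WS_0h and WS_8h, Zm00001d046145 is highest at WS_4h, and Zm00001d017918 and Zm00001d008539 are the member with the largest increase called at WS_12h against WS_2h and the only member called lower.

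The selection asked only for a positive log2 difference at WS_4h, and the members differed most there, from 0.02 to 4.55. At WS_4h all 3 libraries lay above all 3 WS_0h libraries in 66 members, and in 36.8% of the PCgenes tested. For 52 members the WS_4h mean was below both the WS_2h and the WS_6h mean, close to the 47.4% of PCgenes tested that showed this order. The count was 62 without WS_2h replicate 1 and 49 without WS_4h replicate 1, alternatives chosen after seeing the data. In these 52 the median log2 difference was 1.46, 0.79, 2.34, 0.28 and 1.81 from WS_2h to WS_10h. Its alternation between higher and lower values follows from how the members and these 52 were chosen. In 15 members WS_4h was higher than both (median 2.69, with 1.05 at WS_2h and 1.71 at WS_6h), and in the other 33 it lay between them (median 1.34). At WS_8h the medians of the latter groups were 0.37 and 0.28. In 88 members the WS_6h difference was larger than that of WS_10h, and in 57 that of WS_10h was larger than that of WS_12h, with a median absolute gap of 0.18 between the last pair.

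The limit of 100 members cut through a continuous range. The last members inside it had 1.38 (Zm00001d002744), 1.37 (Zm00001d020006) and 1.36 (Zm00001d013376) as the smaller of their WS_6h and WS_10h log2 differences, and the first PCgenes outside it 1.34 (Zm00001d045884), 1.34 (Zm00001d022154) and 1.34 (Zm00001d017619). At the other limit, 33 PCgenes met every condition but had a WS_8h log2 difference from 0.5 to 0.6. The choice of members depended on single libraries, since 56 of the 100 were also selected without WS_8h replicate 3, and 66 with median in place of mean TPM. It also depended on the added constant, since 71 were selected with 0.1 TPM in place of 1 TPM.

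How the members stood among induced PCgenes was examined with the same levels at the other time points. Of 1048 PCgenes with a positive WS_4h difference and WS_6h and WS_10h differences at least as high as the last member, 9.54% were the members, 3 lay below -0.5 at WS_8h, and 945 stayed induced with 0.5 or more. Of all 1048, 239 lay between 0.5 and 1 at WS_8h, 411 between 1 and 2 and 295 at 2 or above. A lower level at WS_8h than at both WS_6h and WS_10h was found in 849 of the 945 (89.8%) and, by selection, in all 100 members, against 33.5% of the PCgenes tested. The median log2 difference of the 945 was 2.47 at WS_6h, 1.49 at WS_8h and 2.31 at WS_10h. The 945 were also chosen by high WS_6h and WS_10h levels, which favours a lower level between them. These values are therefore a description, and a general fall at WS_8h was not tested.

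**Figure D3:**
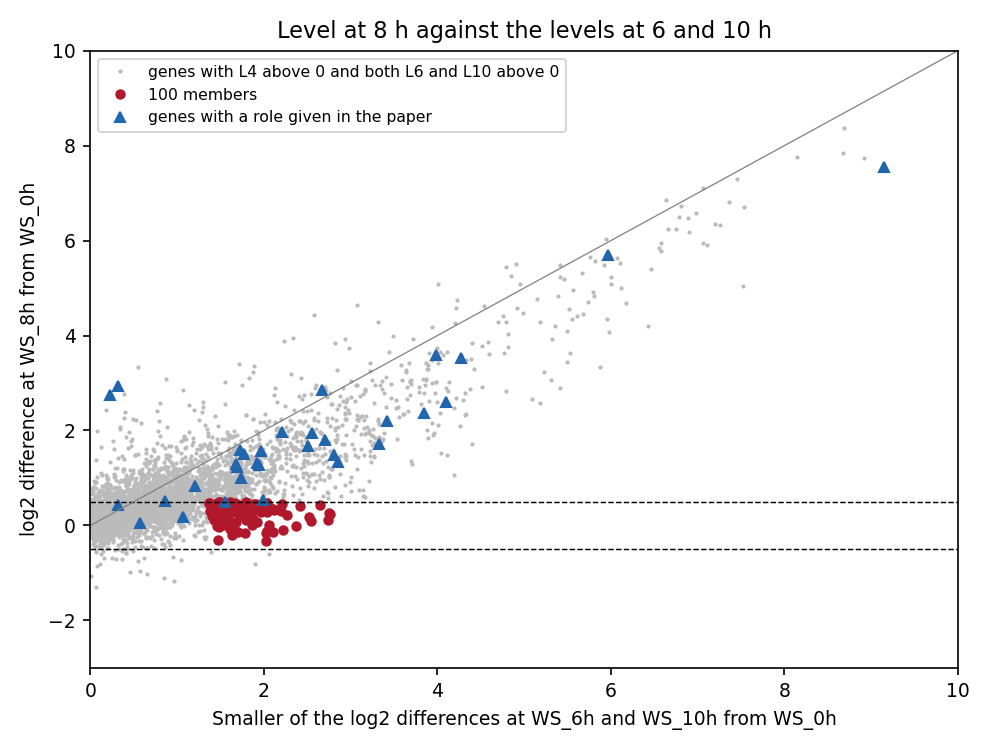
Log2 difference at WS_8h (vertical axis) against the smaller of the log2 differences at WS_6h and WS_10h (horizontal axis) for PCgenes with positive values at WS_4h, WS_6h and WS_10h. The members (red) lie between the dashed lines at -0.5 and 0.5, most other strongly induced PCgenes lie between them and the diagonal of equal levels, and PCgenes with a role given in the study (blue triangles) reach from 0.04 to 7.56 at WS_8h.

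Genes with a known role were taken from those that the text of the study names, partly for their behaviour in these libraries, so they are no independent list. The table holds 58 of the 61 PCgenes that have a complete identifier and a role or family there. None of the 58 was a member, where 100 of all 23175 listed PCgenes were. Of the 58, 25 had a positive WS_4h difference and WS_6h and WS_10h differences at least as high as the last member. Any of these within 0.5 of WS_0h at WS_8h would have been a member, so a larger difference was fixed by the selection. All 25 lay at 0.50 or more at WS_8h (median 1.67, highest 7.56). In 24 of the 25 the WS_8h level was below those of WS_6h and WS_10h, the exception being the bHLH gene Zm00001d027987. Their choice by high WS_6h and WS_10h levels favours this order. The genes named here were singled out after their values were seen. Pyruvate decarboxylase (Zm00001d028759), which commits pyruvate to ethanol fermentation, had 2339.15, 2173.45 and 2210.16 TPM at WS_6h and 884.65, 1018.44 and 1151.44 TPM at WS_8h. These WS_8h levels were well above the 85.92, 85.87 and 90.91 TPM of WS_0h. Hexokinase7 (Zm00001d037689), which phosphorylates glucose at the entry to glycolysis, had log2 differences of 4.46 at WS_6h, 2.36 at WS_8h and 3.85 at WS_10h, and the NAC gene Zm00001d012527 4.24, 1.72 and 3.33.

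Of the annotated PCgenes, 3 met the limits at WS_4h and WS_8h, and some bZIP genes lay just above the limit at WS_8h. The bZIP gene Zm00001d041920, named PosF21 in the study, lay just above the limit of the selection at WS_8h (0.50). From 13.17, 16.06 and 17.50 TPM before flooding it went to 65.96, 69.39 and 81.19 at WS_6h, 18.25, 27.40 and 21.69 at WS_8h and 38.69, 49.68 and 54.10 at WS_10h, with no overlap between these time points. Another bZIP gene, Zm00001d039065, had 3.96, 2.82 and 4.23 TPM at WS_8h (log2 difference 0.53) between 9.35, 13.00 and 15.32 TPM at WS_6h and 11.83, 11.81 and 11.89 TPM at WS_10h. A putative HLH DNA-binding domain protein, Zm00001d047017, was back near its unstressed level at WS_8h (0.17) but rose less at WS_10h (1.07), which placed it 179th in the order of selection. The kinase SAPK4 (Zm00001d012263) and the EIL transcription factor Zm00001d020939 also met both limits and came 725th and 1534th. A gene for 1-aminocyclopropane-1-carboxylate synthase, Zm00001d026060, lay near its unstressed level at WS_8h (0.12) but below it at WS_4h (-0.87).

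At the time points that the selection did not use, the members were raised at both. The median log2 difference from WS_0h was 1.21 at WS_2h (quartiles 0.83 and 1.66) and 1.73 at WS_12h (quartiles 1.43 and 2.04), against 0.01 and -0.08 for all PCgenes tested. The WS_0h libraries entered the selection, so these values have no test. All 3 WS_2h libraries lay above all 3 WS_0h libraries in 68 members (12.5% of the PCgenes tested), and in 96 members without WS_2h replicate 1 (21.1% of the PCgenes tested), an alternative chosen after seeing the data. Only 2 members had a lower mean at WS_2h than at WS_0h, among them Zm00001d020006 (-0.11). At WS_12h 98 members were above WS_0h without overlap (23.1% of the PCgenes tested), and every member had a log2 difference of at least 0.78 there.

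Whether the members were higher late or early in the stress was tested with WS_12h against WS_2h, the only pair of time points of which no library entered the selection. The selection still favours a higher WS_12h, since it asked for a high WS_10h and set no level at WS_2h. WS_12h lay near WS_10h in the members (median absolute gap 0.18). Values were fitted as log2(TPM + 1) with limma across all 22783 PCgenes tested, and a PCgene was called where its log2 difference exceeded 1 in either direction at a p under 0.05 after Benjamini-Hochberg adjustment. At WS_12h 26 members were higher than at WS_2h, where 3.18% of the PCgenes tested were called, and 1 was lower, where 2.9% were called. Among the 945 PCgenes that stayed induced at WS_8h, 40% were called higher. The median difference of the members was 0.51, with standard errors from 0.14 to 0.67, against -0.07 for all PCgenes tested, and 83 members had a positive difference. Without WS_2h replicate 1 the median difference of the members was 0.22, against -0.07 for all PCgenes tested, and 66 members had a positive difference, summaries chosen after seeing the data. All 3 WS_12h libraries lay above all 3 WS_2h libraries in 41 members (13.5% of the PCgenes tested) and below them in 3 (18.1%). WS_2h replicate 1 decided part of the calls: without it 15 members were called higher (3% of the PCgenes tested), 14 of them among the 26, and 3 lower (3.8%). Without it 41 members lay above WS_2h with no overlap, against 21.3% of the PCgenes tested, and 17 below, against 28.4%. With a filter on mean TPM above 5, 71 members were tested and 15 called higher. It left untested some members called in the main fit, among them Zm00001d017918 and Zm00001d019409. Over all PCgenes that passed it 566 were called higher. How many passed was not recorded, so no share can be set beside the 15. The main fit drew its spread from all 21 libraries, 15 of which set the selection. A fit of only WS_2h and WS_12h, which used none of these 15, called 18 members and 684 PCgenes higher.

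**Figure D4:**
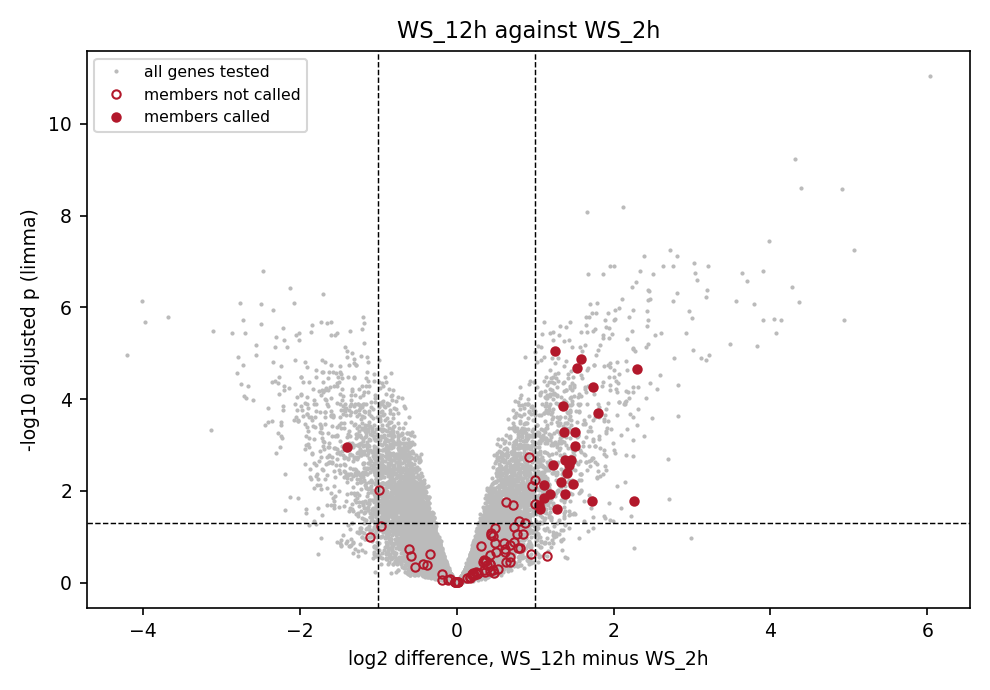
Limma log2 difference of WS_12h minus WS_2h (horizontal axis) and -log10 adjusted p (vertical axis) for all PCgenes tested (grey), the 27 members called (filled red) and the 73 not called (open red). Dashed lines mark a log2 difference of 1 in either direction and an adjusted p of 0.05, and 26 of the called members lie to the right.

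Of the members called, Zm00001d017918 had the largest increase. It had 0.85, 0.84 and 0.63 TPM at WS_2h and 6.90, 6.51 and 10.29 TPM at WS_12h, without overlap (log2 difference 2.31, SE 0.28, limma adjusted p 2.23e-05), while its WS_0h libraries held 0.54, 0.49 and 0.56 TPM. Its WS_2h libraries lay slightly above those of WS_0h, its WS_8h libraries (0.19, 0.74 and 0.84 TPM) overlapped them, and it was higher at WS_6h (4.37, 3.70 and 3.11 TPM) and WS_10h (6.66, 3.72 and 4.54 TPM).

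Zm00001d043128 followed with 2.90, 7.98 and 6.79 TPM at WS_2h and 30.52, 26.15 and 34.53 TPM at WS_12h (2.27, SE 0.63, limma adjusted p 0.0168). Its groups did not overlap either, but the call was lost without WS_2h replicate 1 (1.90) or WS_12h replicate 3 (2.17), as was that of Zm00001d011751 (1.72, with 1.17 and 1.59). Zm00001d020006 had 0.51, 0.43 and 1.04 TPM at WS_2h and 4.16, 6.56 and 3.73 TPM at WS_12h (1.80, SE 0.28, limma adjusted p 1.97e-04), after a maximum of 22.59, 23.35 and 20.41 TPM at WS_4h. Zm00001d019409 had 0.30, 0.88 and 0.54 TPM at WS_2h and 4.74, 3.16 and 4.81 TPM at WS_12h (1.73, SE 0.23, limma adjusted p 5.46e-05). The WS_12h libraries of both lay above those of WS_2h.

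The only member called lower at WS_12h was Zm00001d008539, whose mean was highest at WS_2h. Its libraries held 0.82, 0.92 and 0.65 TPM before flooding, 4.40, 14.20 and 7.36 at WS_2h and 1.84, 2.67 and 2.57 at WS_12h (log2 difference -1.40, SE 0.26, limma adjusted p 0.00112). The WS_2h libraries lay above all of WS_12h, and those of WS_12h above all of WS_0h. Its WS_8h libraries, at 0.39, 1.40 and 1.02 TPM, overlapped those of WS_0h.

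The first members in the order of selection differed in this comparison. Zm00001d046145 (1.36, SE 0.20, limma adjusted p 1.44e-04) and Zm00001d008841 (1.41, SE 0.32, limma adjusted p 0.00416) were higher at WS_12h, with all 3 libraries above those of WS_2h, although the call of Zm00001d008841 was lost in a fit of only these 2 time points. Zm00001d006947 (0.43, SE 0.32), Zm00001d018811 (0.61, SE 0.31) and Zm00001d010812 (0.53, SE 0.49) were not called (limma adjusted p 0.397, 0.187 and 0.512), and their WS_2h and WS_12h libraries overlapped. Of the 945 PCgenes that stayed induced at WS_8h, 378 (40%) were called higher and 29 lower at WS_12h, or 320 (33.9%) and 40 without WS_2h replicate 1, and their difference from the members was not tested.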

How the data were processed

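According to the paper, the authors filtered reads with Trimmomatic, used HISAT2 (2.0.5 in the submitters' processing notes) for alignment against B73 RefGen_v4, and quantified PCgenes with featureCounts. They deposited TPM per PCgene and library. The paper calls PCgenes with a mean above 1 TPM expressed, but 392 listed PCgenes did not exceed it. Read depth per library cannot be read from TPM. The text of the paper gives it only as an approximate figure for all samples and refers to a supplement on sequencing quality, not used here. Precision therefore rests on 3 libraries per time point. Libraries were assigned by their labels, and p-values measure the spread between these pools of root tips.

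WS_12h against WS_2h was fitted with limma 3.58.1 (R 4.3.3) on log2(TPM + 1) of PCgenes with a mean above 1 TPM, all 21 libraries in 1 fit, with a mean-variance trend and no replicate block, and was tested on simulated data. Summaries used Python 3.11.15, numpy 2.4.6 and pandas 2.3.3, drawings matplotlib 3.10.9. Members, lists and tests were chosen with earlier results of these data known. Named members are from the first 15 in the order of selection, the 5 largest differences called in each direction, and the 3 on either side of the limit, with 1 more named for its level. Planned functional groups, promoter motifs and tissue markers were not run, since no identifier matched the RefSeq table. Annotated non-members were taken from the paper's text. lncRNA values were not used here.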

Additional observations from a re-analysis of the deposited data

How the results depend on the processing

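Alternatives were a pseudocount of 0.1 TPM, no filter or one above 5 TPM, a fit of only the 2 time points, no trend, median-ratio scaling, a replicate block and leaving out each library. Members called higher at WS_12h than at WS_2h numbered 15 to 33 when single libraries were left out (15 without WS_2h replicate 1). They numbered 18 in the fit of only the 2 time points and 15 with the filter above 5 TPM, against 26 in the main fit. That filter kept 71 members and left some called members untested, among them Zm00001d017918 and Zm00001d019409, so its lower count does not mean lost calls for these. Members called lower numbered 1 to 3 (3 without WS_2h replicate 1, 2 without WS_2h replicate 3 or WS_12h replicate 2) and 2 with a pseudocount of 0.1 TPM. With limma after the filter above 5 TPM 0 were called lower. The filter excluded Zm00001d008539, the only member called lower in the main fit, so its call was not tested there. Of the members that passed, 3 were lower at an unadjusted limma p under 0.05, 1 of them by more than 1. Over all PCgenes, 660 to 898 were called higher and 469 to 865 lower without single libraries. The fit of only the 2 time points called 684 higher, and the filter above 5 TPM 566. The difference of Zm00001d006947, not called, ran from -0.053 (without WS_2h replicate 1) to 0.86 without single libraries. The replicate block gave 26 members higher and 2 lower. Deviations of same-numbered WS_2h and WS_12h libraries correlated at 0.07, 0.17 and -0.08, and WS_2h replicate 1 correlated best with WS_12h replicate 3 (0.15). Over all time points 19 of 63 same-numbered pairs correlated above 0.1 (median 0.01, highest 0.62), and 30 of 126 others (median -0.03, highest 0.37). By the medians of these correlations across all PCgenes tested the numbers were not taken as a pairing, although the highest correlation was between same-numbered libraries. Replicate 1 was also clearly the lowest library for the members at WS_0h, WS_2h, WS_4h and WS_8h. Of the 100 members, 66 were selected with medians in place of means, 71 with a pseudocount of 0.1 TPM, and 56 (without WS_8h replicate 3) to 99 without single libraries. The median log2 difference at WS_12h was 1.97 with 0.1 TPM and 1.60 to 1.87 without single libraries, and that at WS_2h 0.89 to 1.47. The cause of these shifts was not tested.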
